A study of Arabidopsis thaliana with 12 samples.

Results

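Arabidopsis T87 cells, a suspension line of the Columbia background, were measured on 12 Affymetrix arrays, and the comparison described here sets the 3 arrays from cells given abscisic acid (ABA) and dimethylthiourea (DMTU) together against the 3 arrays from control cells. These 6 of the 12 arrays were taken by their titles, and no measured value entered the choice. Control cells received ethanol. The combined group received 50 µM ABA and 5 mM DMTU for 20 h. The remaining 6 arrays came from cells given 50 µM ABA alone or 5 mM DMTU alone for the same time, and the labels list ethanol for the DMTU cells too. Cells of all 4 groups carried no transgene named in the labels, were 5 days old and in exponential growth at about 120 h of culture, and grew under a light and dark cycle with sucrose and a synthetic auxin in the medium. T87 is a single line held without the tissues of a plant, and each agent was given at 1 dose and 1 time. The study used DMTU to ask which gene activation by ABA depends on hydrogen peroxide. The arrays carried 22810 probe sets, of which 22746 were tested and the 64 manufacturer's controls were not. The annotation gave 1 gene to 13513 of the tested probe sets, and for 1580 of these it also gave a gene symbol. It left 8730 unnamed. The gene lists below were drawn from these names, so they can miss members of a family. A measured member is one that the annotation named.

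ABA is the hormone of drought and seed dormancy. Bound by its soluble receptors, it blocks a group of protein phosphatases and so frees SnRK2 kinases, which activate bZIP factors at the promoters of protective genes such as those of late embryogenesis abundant (LEA) proteins and dehydrins. Hydrogen peroxide made by NADPH oxidases acts as a further messenger in ABA signalling, and DMTU is a thiourea that scavenges it. ABA is also known to slow growth and division, which call on expansins that loosen walls, histones for new DNA, tubulin for the spindle and new ribosomes.

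All values are the deposited log2 levels of probe sets, so that 1 unit is a 2-fold difference. A level is given as the mean ± SD of 3 arrays and a change as the log2 difference ± SE of a model fitted to all 12 arrays (limma). A call means a p, adjusted by Benjamini-Hochberg over the 22746 tested, of under 0.05, and "rose" or "fell" stands for such a call. The labels leave unsaid whether each array had its own culture. The p-values therefore reflect only the variation among these samples, which may be technical. In bulk RNA, fewer cells of a kind and less RNA per cell cannot be told apart.

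Replicate 1 stood apart from its group in 3 of the 4 groups. Control replicate 1 differed from the other control arrays with SDs of 0.565 and 0.550, against 0.167 between those, where each SD is that of the log2 differences over all probe sets. ABA+DMTU replicate 1 differed from its group with SDs of 0.406 and 0.400, against 0.244, and ABA replicate 1 with 0.505 and 0.465, against 0.174. The bioB spike-in, a manufacturer's control, averaged 7.31 ± 0.28 in control and 7.56 ± 0.39 in ABA arrays, but 8.19 ± 0.06 with DMTU alone and 8.20 ± 0.39 with both agents. The bioC spike-in was higher in both groups with DMTU too, with means of 8.65 ± 0.17, 8.69 ± 0.48, 9.58 ± 0.21 and 9.53 ± 0.49 in the same order. The 3' minus 5' difference of the ubiquitin control, a sign of RNA integrity, was 0.92 ± 0.07 in control and 1.10 ± 0.07 in ABA+DMTU arrays by one pair of probe sets and 0.33 ± 0.07 and 0.56 ± 0.15 by the other. For actin the pair with the smaller difference went from 0.76 ± 0.14 to 1.29 ± 0.13 and the other pair from 3.20 ± 0.46 to 3.31 ± 0.07. The part of these shifts in the results was not tested, and the labels name no batch. The sample numbers of the control and ABA arrays form a block apart from those of both groups with DMTU. In comparisons across these blocks, such as ABA+DMTU against control, any difference between the blocks cannot be told apart from an effect of DMTU. Guard cell markers were low. FMA, MUTE and SPCH averaged 3.95 ± 0.04, 3.51 ± 0.05 and 3.55 ± 0.06 in control arrays. In ABA+DMTU arrays they averaged 4.06 ± 0.06, 3.47 ± 0.16 and 3.63 ± 0.24, where the lower quartile of an array lay between 3.84 and 3.98. Root hair, trichome and pollen markers had median control levels of 4.07, 3.59 and 3.89. None of the 9 measured guard cell, root hair, trichome and pollen markers was called. The mesophyll markers were high, with a median level of 11.30 in control and 11.78 in ABA+DMTU arrays. Of the 3 mesophyll markers, rubisco activase (RCA) went from 11.30 ± 0.64 to 12.17 ± 0.27 with an adjusted p of 0.0468, a call that was lost when any of several single arrays was left out, while LHCB4.1 (-0.33 ± 0.18) and PSAN (-0.76 ± 0.30) did not pass the test.

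Across the array, 8419 probe sets (37%) were called between ABA+DMTU and control cells, 3998 (17.6%) higher and 4421 (19.4%) lower in the treated cells. At least a 2-fold change was seen in 3479 (15.3%), of which 1537 were higher and 1942 lower. A change of at least 16-fold was reached by 77 probe sets that were higher and 31 that were lower. The 3 treated and the 3 control arrays did not overlap for 10902 probe sets (47.9%). The median change of all probe sets was 0.05, and the 5th and 95th percentiles of the changes were -1.44 and 1.22. Centring each array on its own median added 0.15 to every change and moved the split to 6620 higher and 3475 lower of the 22746 tested. The centred count stands beside each count of a gene list below that it moved, except for counts marked as before centring. A centred count is to be read against those 6620 and 3475, not against the shares of 17.6% and 19.4%. With weights that give less influence to arrays far from their group, 11671 were called, 6010 higher and 5661 lower. Control replicate 1 had the lowest weight. Without control replicate 1 the count of 8419 was 8787, and without ABA+DMTU replicate 1 it was 7690. For comparison, ABA alone called 8014 probe sets (35.2%), 15.5% higher and 19.8% lower, and DMTU alone 4013 (17.6%), 9.39% higher and 8.26% lower, against the same 3 control arrays.

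**Figure D1:**
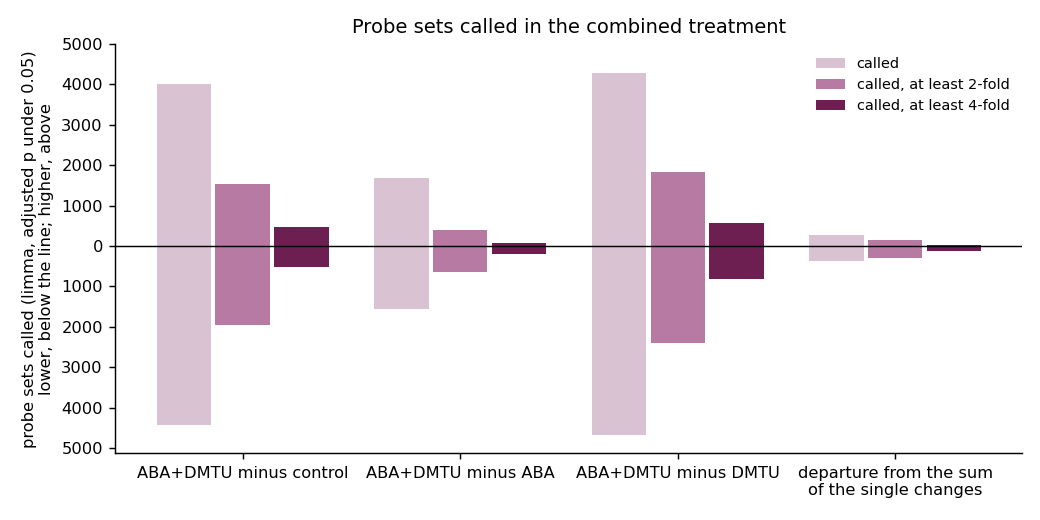
Probe sets called at an adjusted p under 0.05 in the combined treatment against control, against ABA, against DMTU, and for the departure of the combined change from the sum of the single changes. Bars above the line count higher and bars below it lower probe sets, at any size, at least 2-fold and at least 4-fold. The 4421 lower and 3998 higher probe sets against control compare with 1560 and 1674 against ABA alone.

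The largest rises of named genes were those of proteins that protect cells from water loss and cold. LTI30 (AT3G50970), a dehydrin, read 4.33, 4.78 and 4.71 in control and 12.10, 13.28 and 13.37 in ABA+DMTU arrays. All 3 treated arrays thus lay far above all 3 controls, a change of 8.31 ± 0.50 (adjusted p = 5.52e-07, limma). LEA4-5 (AT5G06760), of a LEA family that keeps other proteins from aggregating on drying, read 5.04, 4.10 and 4.09 in control and 11.51, 11.18 and 11.24 in ABA+DMTU arrays, a change of 6.90 ± 0.25 (adjusted p = 1.78e-08). COR15A (AT2G42540), which protects chloroplast membranes in the cold, read 4.01, 4.38 and 4.42 in control and 9.60, 9.71 and 9.95 in ABA+DMTU arrays, a change of 5.49 ± 0.27 (adjusted p = 1.57e-07). The dehydrin COR47 (AT1G20440) read 7.21, 5.06 and 5.35 in control and 10.68, 11.47 and 11.69 in ABA+DMTU arrays, a change of 5.41 ± 0.45 (adjusted p = 5.34e-06). In all 4 genes every treated array lay over 3 units above every control array. The control levels lay below the array medians of 5.78 to 6.05, except for COR47 on control replicate 1.

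Of 13 measured LEA, dehydrin and COR15 genes, 7 rose and 1 fell, with a median change of 0.57 against 0.05 for all probe sets. The 17.6% of all probe sets called higher is the background for that count. COR15B, the neighbour of COR15A in name and kind, rose by 1.36 ± 0.21. LEA18 (AT2G35300) went from 3.75 ± 0.02 to 4.73 ± 0.22, a rise of 0.98 ± 0.24 (adjusted p = 0.00735). The dehydrin LEA (AT2G21490) rose by 0.57 ± 0.16, a call that was lost without ABA+DMTU replicate 1 or 3. AtLEA4-1 (AT1G32560) changed by 0.40 ± 0.39 and did not pass the test. AT2G46140, listed in the gene table as LEA27, was the member that fell: it read 9.10, 7.62 and 7.74 in control and 4.63, 5.54 and 5.66 in ABA+DMTU arrays, a change of -2.88 ± 0.36 (adjusted p = 0.000102). The dehydrin AT1G54410 (HIRD11) averaged 9.99 ± 1.04 in control arrays, 10.07 ± 0.85 with DMTU, 6.59 ± 1.44 with ABA and 9.33 ± 0.52 with both, and its combined change of -0.66 ± 0.71 did not pass. With ABA alone, against the same control arrays, the median of the same genes was 1.95.

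Enzymes that take apart amino acids and one-carbon compounds also rose. FDH (AT5G14780), the mitochondrial formate dehydrogenase, read 8.99, 9.01 and 8.85 in control and 13.25, 13.28 and 13.29 in ABA+DMTU arrays. The groups lay over 4 units apart with little spread, a change of 4.32 ± 0.10 (adjusted p = 1.72e-09). AT4G33150, which encodes the lysine-breaking enzyme LKR/SDH, read 8.81, 7.43 and 7.47 in control and 12.01, 12.26 and 12.04 in ABA+DMTU arrays, a change of 4.20 ± 0.35 (adjusted p = 5.29e-06). A list of 13 measured genes held mainly branched-chain amino acid and lysine breakdown, but also MGL and DELTA-OAT, which act on other amino acids. Of these 13, 9 rose and 0 fell, with a median change of 1.18. Of all probe sets, 17.6% were called higher and 19.4% lower. Among the 9 rises were D2HGDH (1.49 ± 0.20), which oxidises 2-hydroxyglutarate, the aldehyde dehydrogenase ALDH7B4 (1.47 ± 0.21), methionine gamma-lyase MGL (1.34 ± 0.19) and isovaleryl-CoA dehydrogenase IVD (1.31 ± 0.17). The count of rises was 10 with centring and without control replicate 1, and 7 without control replicate 2 or 3, with no falls in any of these settings. A list of 16 genes held enzymes of the tricarboxylic acid and glyoxylate cycles and related enzymes outside them. The latter included ICDH, MAB1 and ACLA-3, which rose, and cICDH, which fell. Of these 16 genes, 6 rose and 2 fell against that same background. The 6 became 8 with centring, with 0 falls, and 3 without ABA+DMTU replicate 2 or 3. The largest rises were ICDH, an isocitrate dehydrogenase (1.73 ± 0.16), and SDH1-1, the flavoprotein of succinate dehydrogenase (1.66 ± 0.21). SDH1-2, its near copy, fell with a change of -0.59 ± 0.18, a call lost with centring and without control replicate 2 or ABA+DMTU replicate 1 or 2.

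Single enzymes and transporters of sugar and starch were among the large rises. Of 16 SWEET sugar exporters 2 rose and 0 fell (6 and 0 with centring), and of 21 BGLU beta-glucosidases 3 rose and 1 fell (5 and 1 with centring). Before centring, both shares of rises lie below the 17.6% of all probe sets called higher. AMY1 (AT4G25000), a secreted alpha-amylase, read 5.03, 4.62 and 4.43 in control and 9.34, 9.38 and 8.74 in ABA+DMTU arrays, a change of 4.46 ± 0.27 (adjusted p = 5.86e-07). BGLU45, a beta-glucosidase of the lignin precursor pathway, went from 4.63 ± 0.36 to 9.72 ± 0.35 (5.09 ± 0.32). SAG29 (SWEET15), a sugar exporter of senescing leaves, went from 5.13 ± 0.40 to 9.99 ± 0.19 (4.85 ± 0.19). The sugar porter SFP1 rose by 3.14 ± 0.39, while its relative SFP2 (-0.02 ± 0.16) did not pass. APL3, a subunit of the starch-making ADP-glucose pyrophosphorylase, rose by 1.32 ± 0.24, and APL4 (0.48 ± 0.23) did not pass. CXE18, a carboxylesterase, rose by 3.72 ± 0.33, the purple acid phosphatase PAP20 by 3.50 ± 0.37 and the sulfurtransferase STR18 by 3.01 ± 0.38. CCL (AT3G26740, named CCR-like) rose by 5.22 ± 0.61, ZW9 (AT1G58270) by 4.67 ± 0.51 and CPUORF47 (AT5G03190) by 4.09 ± 0.38. Among vacuolar processing enzymes, proteases that mature seed and vacuolar proteins, BETA-VPE rose by 3.16 ± 0.31 and ALPHA-VPE by 1.02 ± 0.16. DELTA-VPE (0.43 ± 0.15) passed too, but lost its call when any of several single arrays was left out, and GAMMA-VPE (0.61 ± 0.48) did not pass.

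Protein turnover genes moved in both directions, and the counts below stand against 17.6% of all probe sets called higher and 19.4% lower. PUB19, a U-box ubiquitin ligase that acts against ABA responses, read 4.52, 4.84 and 4.82 in control and 8.34, 8.18 and 8.002 in ABA+DMTU arrays, a change of 3.45 ± 0.18 (adjusted p = 1.99e-07). Of 9 U-box ligases, 4 rose, the others being PUB25 (2.19 ± 0.30), PUB24 (1.64 ± 0.25) and PUB43 (1.07 ± 0.35), and PUB22 fell (-0.63 ± 0.16). The call of PUB43 was lost without control replicate 2 or 3 or ABA+DMTU replicate 2 or 3. Of 12 ubiquitin-specific proteases, which remove ubiquitin, 7 fell and 1 rose, with a median of -0.55, and the largest fall was that of UBP21 (-2.46 ± 0.17). UBC20, an E2 enzyme of the machinery that degrades mitotic cyclins, read 8.29, 9.53 and 9.30 in control and 5.13, 5.57 and 5.49 in ABA+DMTU arrays, a change of -3.64 ± 0.30 (adjusted p = 4.73e-06). PEX4 (UBC21, AT5G25760), often used as a reference gene in Arabidopsis, rose from 8.07 ± 0.05 to 8.84 ± 0.28 (0.77 ± 0.13, adjusted p = 0.000826). UBC30 rose by 1.79 ± 0.13 and UBC32, of protein quality control in the endoplasmic reticulum, by 1.29 ± 0.23.

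Genes known by locus alone were among the largest changes. AT3G02480 read 4.30, 7.52 and 6.61 in control and 12.53, 13.66 and 13.71 in ABA+DMTU arrays (7.16 ± 0.67), AT2G37870 rose by 6.56 ± 0.40, AT2G25450 by 5.79 ± 0.47, AT5G24080 by 5.34 ± 0.19, AT3G14395 by 5.25 ± 0.39 and AT5G62800 by 5.15 ± 0.17. The largest fall of the comparison was that of AT5G44400, which read 11.04, 11.05 and 11.18 in control and 3.94, 4.87 and 4.59 in ABA+DMTU arrays (-6.62 ± 0.24, adjusted p = 1.78e-08). The next of the loci without a symbol were AT1G30760 (-5.97 ± 0.53), AT3G27400 (-5.79 ± 0.44), AT1G03820 (-5.78 ± 0.22), AT3G22540 (-5.03 ± 0.28) and AT3G61820 (-4.86 ± 0.41). For all 12 the treated and control arrays did not overlap, as the rule that chose them required. Control replicate 1 of AT3G02480 lay over 2 units below the other control arrays.

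**Figure D2:**
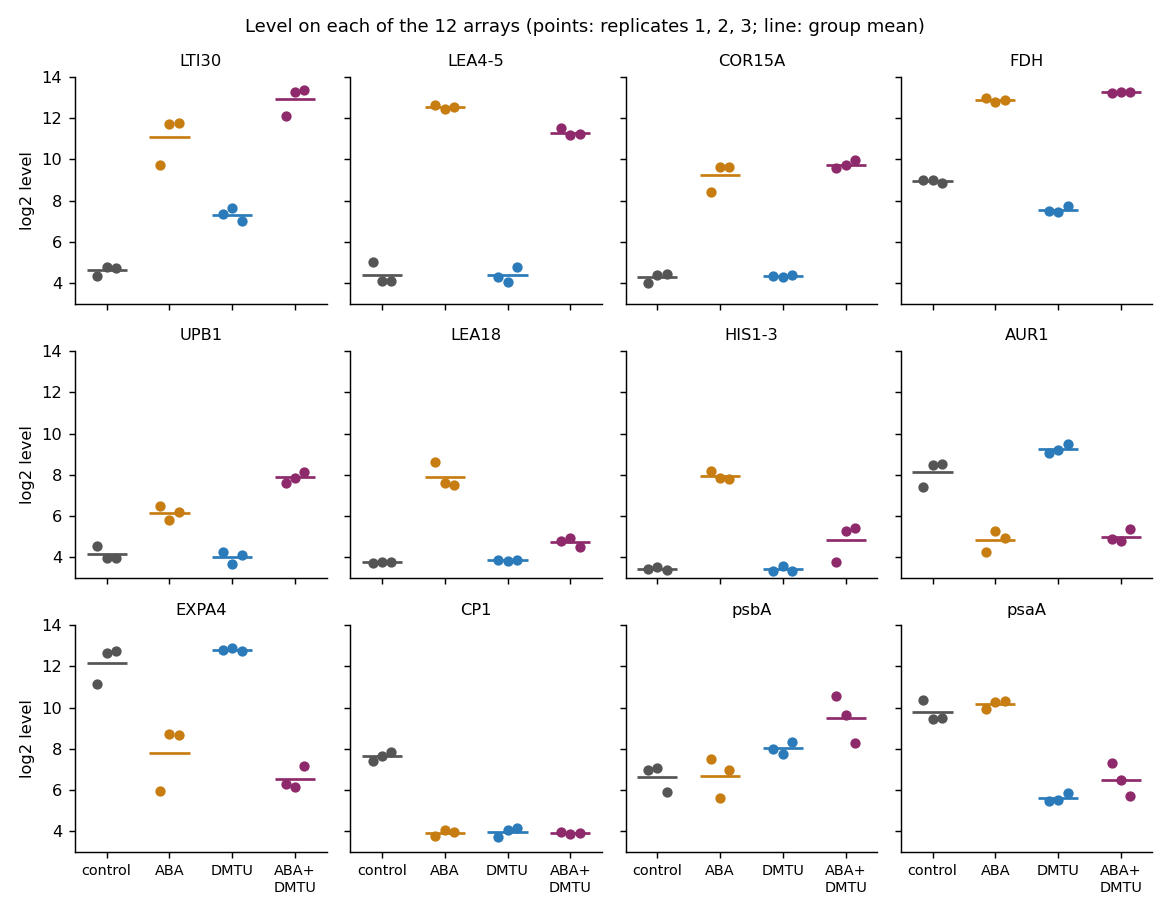
Log2 level of 12 genes on each of the 12 arrays. Points are replicates 1 to 3 of a group in order, and lines are group means. LTI30, LEA4-5, COR15A and FDH were high in both groups with ABA, LEA18 and HIS1-3 were high in ABA alone and far lower in ABA+DMTU, CP1 was near 4 in all treated groups, and psaA was low in both groups with DMTU.

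Cell wall proteins were among the largest falls of genes with a symbol. EXPA4 (AT2G39700), an expansin that loosens walls for growth, read 11.13, 12.68 and 12.73 in control and 6.27, 6.14 and 7.14 in ABA+DMTU arrays, a change of -5.67 ± 0.66 (adjusted p = 5.99e-05). GH9C2, an endoglucanase that cuts cellulose, read 9.80, 10.61 and 10.63 in control and 4.91, 4.37 and 4.84 in ABA+DMTU arrays, a change of -5.64 ± 0.30 (adjusted p = 1.96e-07). EXPA8, EXPA15 and EXPB3 fell too, with changes of -4.43 ± 0.47, -4.14 ± 0.33 and -3.46 ± 0.35. These were the falls that passed among 18 expansins and expansin-like genes, of which 3 rose (6 with centring and 5 without ABA replicate 1), EXLA1 (2.04 ± 0.24), EXLA3 (1.03 ± 0.23) and EXPB2 (0.65 ± 0.15). Against the 19.4% of all probe sets called lower, 4 of 18 is close to the background. TBL36, of a family that acetylates wall polymers, read 11.37, 11.35 and 11.18 in control and 6.89, 6.52 and 6.95 in ABA+DMTU arrays, a change of -4.51 ± 0.23 (adjusted p = 1.68e-07), whereas TBL38 (1.91 ± 0.54), TBL37 (1.71 ± 0.34) and TBL25 (1.58 ± 0.14) rose. The call of TBL38 was lost without control replicate 2 or 3. Of 22 members of that family 7 rose and 3 fell, the rises being 9 with centring and 4 without control replicate 2 or 3. Of 8 cellulose synthase-like genes 1 rose (2 with centring) and 4 fell, among them CSLC5 (-1.02 ± 0.14). Of all probe sets, 17.6% were called higher and 19.4% lower. PMEPCRF, a pectin methylesterase, rose by 1.79 ± 0.17 and XTH29, which rejoins xyloglucan chains, by 1.47 ± 0.30. Before centring, 1 of 5 pectin enzymes and 1 of 10 xyloglucan endotransglucosylases rose and 0 fell. Of 15 GH9 endoglucanases, 1 rose and 3 fell before centring.

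Other large falls were those of the glycosyltransferase UGT73D1 (-3.46 ± 0.33), PR-1-LIKE (-3.37 ± 0.38), the homocysteine methyltransferase HMT-1 (-3.04 ± 0.16) and CP1 (AT4G36880), a cysteine protease. CP1 read 7.42, 7.65 and 7.83 in control and 3.95, 3.88 and 3.91 in ABA+DMTU arrays, a change of -3.72 ± 0.14 (adjusted p = 2.23e-08). All 3 treated arrays read at about the lower quartile of an array, a level at which a probe set is close to background.

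Genes of cell division fell as a group. The test called 16 of 19 mitosis genes lower and 0 higher, and their median change was -1.15, where 19.4% of all probe sets were called lower. AUR1 (AT4G32830), an Aurora kinase that acts at the spindle and the cell plate, read 7.39, 8.49 and 8.54 in control and 4.85, 4.79 and 5.34 in ABA+DMTU arrays, a change of -3.14 ± 0.32 (adjusted p = 2.35e-05). The mitotic chromosome protein 3xHMG-box2 read 9.03, 9.58 and 9.46 in control and 4.42, 5.18 and 5.16 in ABA+DMTU arrays, a change of -4.44 ± 0.32 (adjusted p = 1.93e-06). AUR2 (-2.25 ± 0.31), the condensin subunit ATSMC2 (-2.12 ± 0.15) and the centromeric histone HTR12 (-2.04 ± 0.29) fell as well. All 7 listed genes of DNA replication and its control fell, with a median of -1.51, the F-box gene FBL17 and the histone chaperone gene ASF1B among them. PRL, a subunit of the replicative helicase, read 7.46, 7.58 and 7.77 in control and 4.19, 4.55 and 4.43 in ABA+DMTU arrays, a change of -3.21 ± 0.18 (adjusted p = 3.07e-07). POLA3, of the primase, fell with a change of -2.90 ± 0.17, and ICU2, the catalytic subunit of polymerase alpha, with -2.02 ± 0.17. Over 20 other settings, which left out arrays or scaled them otherwise, between 13 (with centring) and 16 of the 19 mitosis genes were called lower and 0 higher, and all 7 replication genes were called lower in each.

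Of 8 histone genes, with HTR12 counted here too, 5 fell and 1 rose, where 19.4% of all probe sets were called lower and 17.6% higher. HTB2, a core histone H2B, read 9.81, 10.43 and 10.84 in control and 7.13, 6.77 and 6.85 in ABA+DMTU arrays, a change of -3.44 ± 0.53 (adjusted p = 0.000418), and HTB1 fell with a change of -2.14 ± 0.15. The exception was HIS1-3 (AT2G18050), the linker histone induced by drought. It read 3.40, 3.53 and 3.36 in control and 3.74, 5.28 and 5.41 in ABA+DMTU arrays, a rise of 1.38 ± 0.34 (adjusted p = 0.00837), and replicate 1 of the combined treatment lay closest to the controls. Of 7 tubulins, 5 fell (3 with centring) and 0 rose against the same background, the falls among them being TUB7 (-2.58 ± 0.23), TUB6 (-1.08 ± 0.26) and TUA6 (-1.02 ± 0.24). TUB9 (-0.71 ± 0.23) fell too, but its call was lost when any of the 3 control arrays was left out.

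Genes that make ribosomes and transcripts fell with them. Of 12 subunits of RNA polymerases I to V, 9 fell (8 with centring) and 0 rose, with a median of -1.29, where 19.4% of all probe sets were called lower. NRPA2, a large subunit of RNA polymerase I, which transcribes ribosomal RNA, read 8.005, 8.71 and 8.76 in control and 6.49, 6.72 and 6.54 in ABA+DMTU arrays, a change of -1.91 ± 0.19 (adjusted p = 2.01e-05). NRPB12, shared by several of the polymerases, fell with a change of -1.65 ± 0.25. Of 9 ribosome biogenesis genes, 2 of which are also polymerase subunits, 7 fell and 0 rose, again beside 19.4% of all probe sets, with a median of -1.49. They included YAO (-1.84 ± 0.39) and IMP4 (-1.59 ± 0.30), both of ribosomal RNA processing, and the RNA helicase PRH75 (-1.59 ± 0.13). Of 19 heat and folding genes, 6 fell and 3 rose before centring, with a median of -0.13, beside 19.4% of all probe sets lower and 17.6% higher. The chaperone Hsp70-2 fell with a change of -1.90 ± 0.13 and the co-chaperone Hop1 with -1.10 ± 0.12. AT5G48570 (ROF2), a heat-induced prolyl isomerase, rose by 2.19 ± 0.36.

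The medians of the division and ribosome lists with ABA and with DMTU alone had opposite signs. The mitosis median was -1.33 with ABA, 0.90 with DMTU and -1.15 with both, all against the same 3 control arrays. For replication the medians were -1.72, 0.38 and -1.51 in the same order, for RNA polymerase subunits -1.38, 0.53 and -1.29, and for ribosome biogenesis -1.58, 0.67 and -1.49. Tubulins had -1.34, 0.30 and -0.84, less low with both than with ABA, and histones -0.61, 0.54 and -0.83, lower with both. AUR1 averaged 8.14 ± 0.65 in control and 9.24 ± 0.22 in DMTU arrays, and 4.81 ± 0.51 in ABA and 4.996 ± 0.30 in ABA+DMTU arrays. The direct test between ABA+DMTU and ABA called 1 of the mitosis genes higher and 0 lower, 2 of the 7 tubulins higher, 2 of the 8 histones lower and 0 of the RNA polymerase subunits, where 7.36% of all probe sets were called higher and 6.86% lower. A call that is missed does not show that these levels were alike. Against DMTU, ABA+DMTU was lower for 15 of the 19 mitosis genes and for 12 of the 12 polymerase subunits, where 20.6% of all probe sets were called lower.

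**Figure D3:**
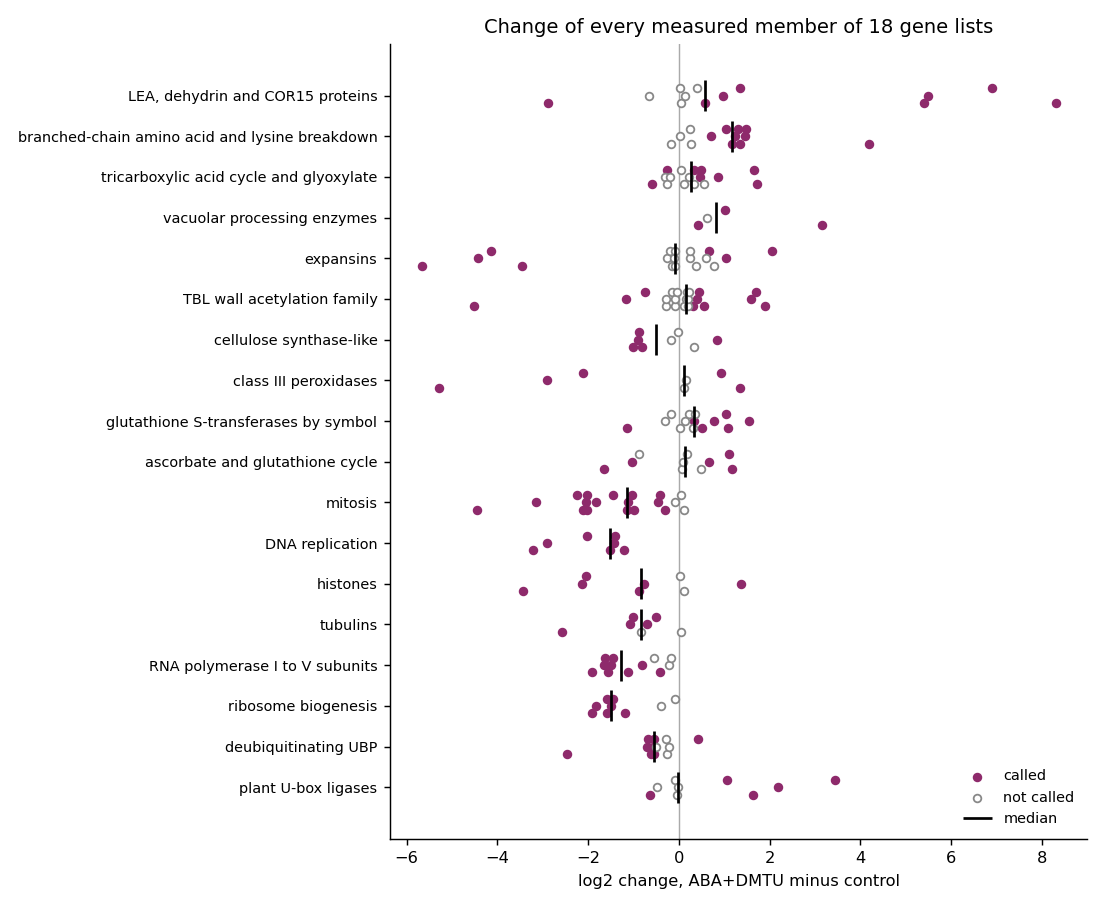
Log2 change between ABA+DMTU and control for each measured member of the gene lists used. Filled points were called, open points were not, and bars are list medians. The mitosis, DNA replication, RNA polymerase and ribosome biogenesis lists lie almost wholly below 0, with medians between -1.51 and -1.15, and the LEA list spans from -2.88 to 8.31.

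Genes tied to hydrogen peroxide, the molecule that DMTU scavenges, moved in both directions, and their counts stand beside 17.6% of all probe sets called higher and 19.4% lower. UPB1 (AT2G47270), a bHLH factor that represses peroxidase genes in roots, read 4.52, 3.94 and 3.94 in control and 7.61, 7.86 and 8.14 in ABA+DMTU arrays, a change of 3.74 ± 0.23 (adjusted p = 6.37e-07). STZ, the other measured gene of the list of NADPH oxidases and hydrogen peroxide markers, changed by 0.08 and did not pass (adjusted p = 0.88, limma). No NADPH oxidase gene was among the measured members of that list, so none is described here. Prx37, a secreted peroxidase, read 6.70, 9.60 and 9.90 in control and 3.38, 3.71 and 3.26 in ABA+DMTU arrays, a change of -5.28 ± 0.63 (adjusted p = 7.25e-05). The groups did not overlap, and control replicate 1 lay nearly 3 units below the other controls. Of 7 class III peroxidases, 3 fell, the others being PRXR1 (-2.92 ± 0.75) and AT5G64120 (PRX71; -2.11 ± 0.60), and 2 rose (3 with centring), AT2G41480 (PRX25; 1.34 ± 0.19) and PRX52 (0.92 ± 0.14). The call of PRX71 was lost without control replicate 2 or 3 or ABA+DMTU replicate 1. Of 10 genes of the ascorbate and glutathione cycle and peroxiredoxin repair, 3 rose (4 with centring) and 2 fell, shares near that background. Glutathione reductase GR1 rose by 1.12 ± 0.16, sulfiredoxin SRX, which repairs overoxidised peroxiredoxin, by 1.17 ± 0.22 and the mitochondrial peroxiredoxin PRXIIF by 0.66 ± 0.19, the last call being lost without ABA+DMTU replicate 1. The stromal ascorbate peroxidase SAPX fell with a change of -1.65 ± 0.33 and the monodehydroascorbate reductase ATMDAR2 with -1.03 ± 0.21. Of 14 glutathione S-transferases, 6 rose and 1 fell, GSTL3 being highest (1.55 ± 0.14) and GSTU22 the one that fell (-1.14 ± 0.24). The rises were 9 with centring, 3 without control replicate 2 or ABA+DMTU replicate 1 and 2 without control replicate 3.

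Of 5 alternative NADH dehydrogenases, which bypass complex I in mitochondria, 3 rose and 2 fell, where 17.6% of all probe sets were higher and 19.4% lower, and without ABA+DMTU replicate 2 or 3 no rise was called. NDB4 fell (-2.66 ± 0.62), NDB1 fell (-0.79 ± 0.16) and NDB2 rose (0.82 ± 0.22). PYE (POPEYE), a bHLH regulator of the iron deficiency response, read 4.81, 6.05 and 5.70 in control and 7.37, 7.75 and 7.64 in ABA+DMTU arrays, a rise of 2.06 ± 0.26 (adjusted p = 9.24e-05). Its level was 6.60 ± 0.16 with ABA and 7.59 ± 0.17 with DMTU alone. Of 8 measured iron regulators and transporters, PYE among them, 2 rose and 0 fell before centring, with a median of 0.03. The background is again 17.6% higher and 19.4% lower. CDI, named for induction by cadmium, rose by 1.70 ± 0.20, with 7.57 ± 0.10 in control, 9.24 ± 0.26 in DMTU and 9.28 ± 0.16 in ABA+DMTU arrays.

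Genes encoded in the plastid split. Of 69 genes measured, 9 rose and 20 fell, with a median of -0.24, or 13.0% higher and 29.0% lower, where the 5 nuclear chromosomes had 15.7% to 18.3% higher and 16.6% to 18.7% lower. psaA, a core subunit of photosystem I, read 10.36, 9.47 and 9.48 in control and 7.31, 6.47 and 5.71 in ABA+DMTU arrays. All 3 treated arrays lay below all 3 controls, a change of -3.27 ± 0.35 (adjusted p = 3.33e-05). psbA, the D1 protein of photosystem II, read 6.98, 7.05 and 5.92 in control and 10.55, 9.65 and 8.28 in ABA+DMTU arrays, a rise of 2.84 ± 0.57 (adjusted p = 0.00242), with replicate 1 of the combined treatment the highest and replicate 3 the lowest. Photosystem II had 2 genes higher and 6 lower of 15, the falls led by psbH (-1.63 ± 0.26). The NDH complex, which recycles electrons around photosystem I, had 3 higher and 1 lower of 10: ndhK (2.25 ± 0.59), ndhJ (1.97 ± 0.54) and ndhG (1.29 ± 0.47) rose and ndhH (-0.90 ± 0.32) fell. With centring the NDH complex had 4 higher and 0 lower. Without ABA+DMTU replicate 2 none of these NDH calls held. The ribosomal protein genes rps18 (-2.01 ± 0.25), rpl36 (-1.51 ± 0.16) and rpl33 (-1.40 ± 0.11) fell, and rpl20 rose (2.20 ± 0.59). rbcL, the large subunit of rubisco, rose by 1.97 ± 0.33 and the assembly factor gene ycf3 by 1.63 ± 0.41, while ycf4, of photosystem I assembly, fell with a change of -1.72 ± 0.40.

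These plastid counts moved with single arrays. The 9 higher and 20 lower became 14 and 14 without control replicate 1, 5 and 23 without ABA+DMTU replicate 1, 4 and 16 without ABA+DMTU replicate 2, 17 and 13 without ABA+DMTU replicate 3, 5 and 19 without control replicate 3, 12 and 15 with centring, and 6 and 12 in a fit of the 6 arrays alone, and the median turned to 0.10 without ABA+DMTU replicate 3. ndhG, ndhJ, rpl20 and petD of the cytochrome b6f complex (1.11 ± 0.31) lost their calls without ABA+DMTU replicate 1 or 2. The calls of psaA, psbA, psbH, rps18, rpl36 and rpl33 held in each of the 20 other settings. Against the same controls, DMTU alone had 1 of the 69 genes higher and 30 lower, with a median of -0.66, where 8.26% of all probe sets were called lower. ABA alone had 0 higher and 2 lower, with a median of 0.21, where 19.8% of all were called lower. ABA+DMTU was higher than DMTU for 19 genes and lower for 0, where 18.8% of all were higher. Against ABA it was higher for 2 and lower for 17, where 6.86% of all were lower. Labelling by the 3' kit starts from poly(A) tails, which most organelle transcripts lack, and the part of such priming in these levels was not tested.

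**Figure D4:**
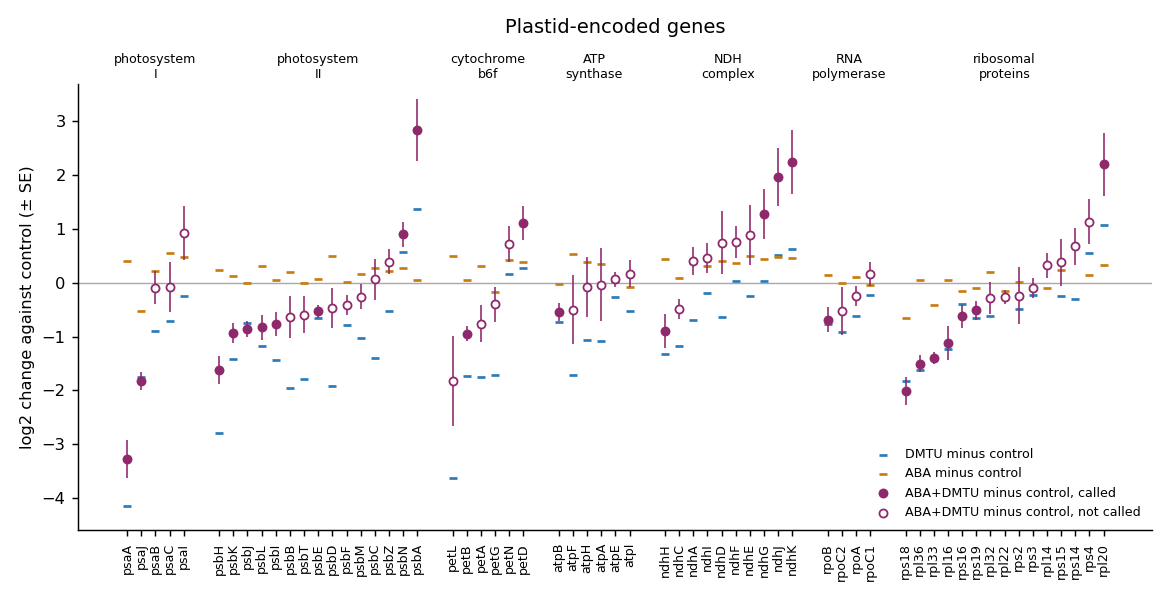
Log2 change against control of plastid-encoded genes by complex, ordered within each. Circles with SE are ABA+DMTU, filled where called, and dashes are the changes with DMTU and ABA alone against the same controls. psaA (-3.27) and psbA (2.84) mark the ends of the combined changes, and most DMTU dashes lie below 0.

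Mitochondrion-encoded genes had 6 of 16 called higher (8 with centring) and 0 lower, where 17.6% of all probe sets were higher. cox1, a subunit of cytochrome oxidase, read 5.12, 4.89 and 4.65 in control and 7.30, 7.89 and 5.95 in ABA+DMTU arrays, a change of 2.15 ± 0.39 (adjusted p = 0.0012). The calls of nad4 (1.57 ± 0.47), ccb382 (1.69 ± 0.55) and orfX (1.14 ± 0.37) were each lost without ABA+DMTU replicate 1 or 2, and without either of these the list had 2 higher and 1 lower. Without control replicate 2 or 3, 1 gene was called. The 7 probe sets for nad1 ranged from -0.53 to 1.53 in change, and 1 of them was called. Nuclear genes of photosynthesis had 6 of 23 higher (9 with centring) and 1 lower, against the same 17.6%. PIFI (AT3G15840), a chloroplast protein that works with the NDH complex, read 4.54, 5.80 and 5.67 in control and 8.10, 8.40 and 8.47 in ABA+DMTU arrays, a change of 2.99 ± 0.32 (adjusted p = 3.37e-05). PGRL1B, of cyclic electron flow, rose by 1.28 ± 0.12, and LHCB4.3, an antenna protein, by 1.52 ± 0.39.

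Further families were described by their counts. Of 15 tetraspanins, membrane scaffold proteins, 5 rose and 0 fell, against a background of 17.6% higher and 19.4% lower for all probe sets, led by TET15 (1.70 ± 0.25) and TET10 (1.43 ± 0.24). Of 48 UDP-glycosyltransferases, which attach sugars to hormones and secondary metabolites, 14 rose and 6 fell, with UGT87A2 (2.30 ± 0.17) and UGT71C4 (1.97 ± 0.14) highest and UGT73D1 lowest. With centring the tetraspanin rises were 8, and the UDP-glycosyltransferases had 29 rises and 4 falls. Of all 22746 probe sets, centring gave 6620 higher and 3475 lower. Of 11 RALF peptides, which raise the pH outside the cell, 1 rose and 2 fell before centring, the rise being that of RALFL32 (1.95 ± 0.38). Of 10 NET actin-binding proteins 3 rose and 2 fell before centring. NET1B rose by 1.57 ± 0.23 and NET1A fell with a change of -1.39 ± 0.25. Both counts stand beside 17.6% of all probe sets higher and 19.4% lower.

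How far the combined treatment differed from ABA alone was tested directly. That contrast equals the difference between the combined and the ABA change, because the control cancels. It called 3234 probe sets (14.2%), 1674 (7.36%) higher and 1560 (6.86%) lower in ABA+DMTU, and 1044 changed at least 2-fold. Without ABA replicate 1 the count was 2513, without ABA+DMTU replicate 1 it was 3021, and with array weights it was 7542. At least a 16-fold difference was measured for 22 probe sets that were lower and 1 that was higher. Among genes with a symbol psaA lay lowest, at 10.17 ± 0.20 in ABA and 6.50 ± 0.80 in ABA+DMTU arrays (-3.67 ± 0.35, adjusted p = 8.23e-05). UGT71C1, a glycosyltransferase, read 9.01, 8.87 and 8.92 in ABA and 6.05, 4.85 and 5.80 in ABA+DMTU arrays, a difference of -3.37 ± 0.35 (adjusted p = 0.000145). With DMTU alone it was 5.49 ± 0.75, and in control cells 7.11 ± 0.15. SIZ1, a SUMO ligase that restrains ABA signalling, was 7.49 ± 0.24 in control cells, 7.63 ± 0.10 with ABA, 4.81 ± 0.32 with DMTU and 5.01 ± 0.05 with both by the probe set with the larger change (-2.62 ± 0.16 against ABA). Its other probe set, the brighter of the pair, changed by -0.85 against control where this one changed by -2.48, with the same sign and a smaller size. GSO1, a receptor kinase, differed by -2.59 ± 0.40 from ABA and LEA18 by -3.17 ± 0.24. The highest were psbA (2.79 ± 0.57), CDI (2.15 ± 0.20), PIFI (2.08 ± 0.32), ARL (2.02 ± 0.33), cox1 (1.95 ± 0.39) and LTI30 (1.84 ± 0.50). The call of LTI30 in this contrast was lost without ABA replicate 1 or ABA+DMTU replicate 2 or 3.

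Whether the combined change departed from the sum of the single changes on the log2 scale was tested as an interaction, which called 638 probe sets (2.8%), 263 (1.16%) above and 375 (1.65%) below the sum. At least 16-fold below the sum lay 23 probe sets, and 0 lay that far above it. The count was 291 without DMTU replicate 2, between 343 and 416 without control replicate 2 or 3, ABA replicate 3, ABA+DMTU replicate 2 or 3 or DMTU replicate 1, 1243 without replicate 1 of both the control and the ABA group, and 3097 with array weights. LEA18 read 8.60, 7.58 and 7.50 with ABA, 3.88, 3.79 and 3.84 with DMTU and 4.78, 4.92 and 4.48 with both. Its rise of 4.14 with ABA and change of 0.09 with DMTU stand beside 0.98 with both, a departure of -3.25 ± 0.34 (adjusted p = 0.000673). HIS1-3 read 8.19, 7.82 and 7.78 in ABA, 3.32, 3.55 and 3.34 in DMTU and 3.74, 5.28 and 5.41 with both, a departure of -3.09 ± 0.49 (adjusted p = 0.00801). LEA18 and HIS1-3 lay near background in control and DMTU arrays, where a fall with DMTU alone cannot be measured. SAG29 rose by 7.11 with ABA and by 4.85 with both, a departure of -2.31 ± 0.27. The starch gene APL4 averaged 4.26 ± 0.08 in control cells, 6.71 ± 0.06 with ABA, 4.46 ± 0.08 with DMTU and 4.74 ± 0.61 with both, a departure of -2.18 ± 0.32 (adjusted p = 0.00555). The carboxypeptidase-like scpl28 averaged 4.02 ± 0.15, 6.52 ± 0.36, 3.73 ± 0.23 and 4.16 ± 0.31 in the same order, a departure of -2.07 ± 0.29. In both genes the combined change against control did not pass the test (0.48 ± 0.23 and 0.13 ± 0.20). PUB19 (-1.70 ± 0.26) and the dehydrin LEA (-1.48 ± 0.23) departed the same way. AtLEA4-1 departed by -2.45 ± 0.55 (adjusted p = 0.0417), a call lost when any control array was left out.

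Departures above the sum were of other kinds. FDH fell with DMTU alone, from 8.95 ± 0.09 to 7.56 ± 0.16, and rose with ABA to 12.90 ± 0.09, yet stood at 13.27 ± 0.02 with both, a departure of 1.77 ± 0.15 (adjusted p = 0.000167). PMEPCRF fell with DMTU to 6.59 ± 0.21 from 8.83 ± 0.03, and was 10.61 ± 0.26 with ABA and 10.62 ± 0.31 with both, a departure of 2.25 ± 0.25 (adjusted p = 0.00102). The difference between ABA+DMTU and ABA was 0.38 ± 0.10 for FDH (adjusted p = 0.0321), a call lost in several settings, and 0.01 ± 0.17 for PMEPCRF (adjusted p = 0.979). UPB1 was at 3.999 ± 0.31 with DMTU, 6.16 ± 0.34 with ABA and 7.87 ± 0.26 with both, a departure of 1.84 ± 0.33 (adjusted p = 0.0149). Its control and DMTU levels lay near background, where a fall with DMTU alone cannot be measured. The receptor kinase SD1-29 was 6.19 ± 0.04 with ABA, 6.68 ± 0.40 with DMTU and 7.47 ± 0.06 with both, against 6.88 ± 0.27 in control, a departure of 1.48 ± 0.26 (adjusted p = 0.0143). The vacuolar fructose transporter SWEET17 departed by 1.81 ± 0.37 (adjusted p = 0.0273), a call lost without control replicate 2 or 3 and when any ABA+DMTU array was left out. CP1 averaged 3.93 ± 0.13 with ABA, 3.97 ± 0.24 with DMTU and 3.91 ± 0.03 with both, against 7.63 ± 0.21 in control. Each agent alone thus took it to background, where no further fall can be measured, so its departure of 3.64 ± 0.20 is set by that floor and is no measure of how the agents combined.

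**Figure D5:**
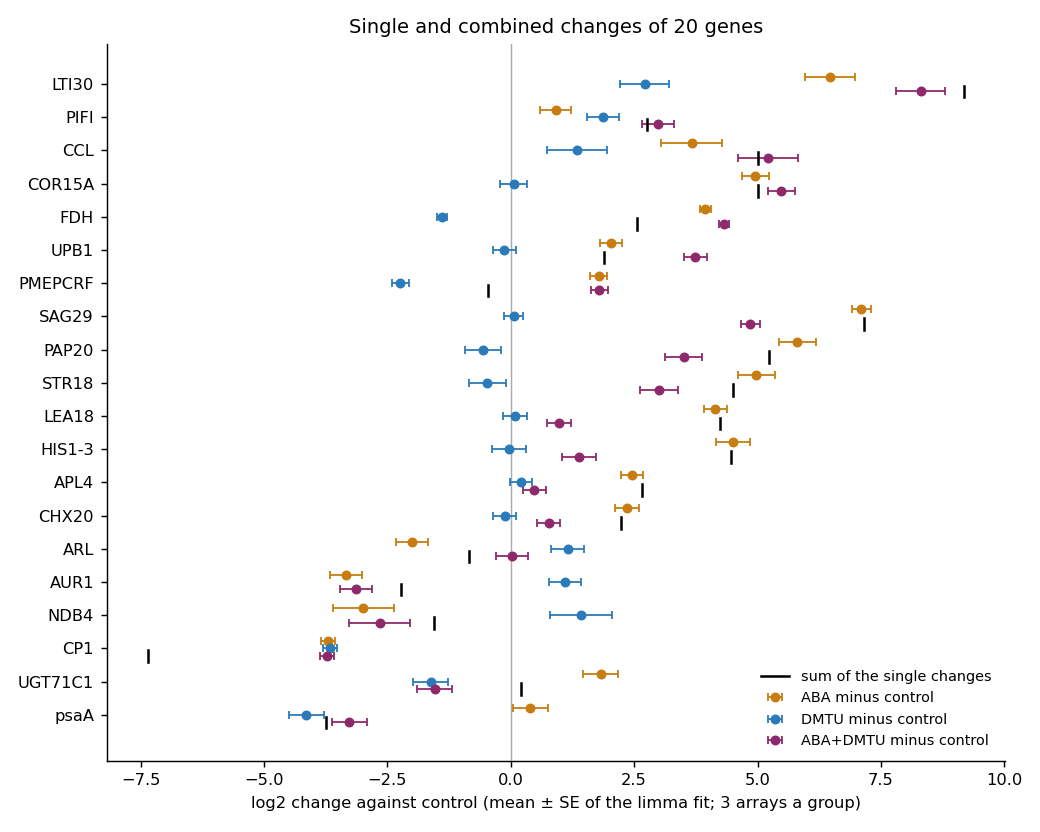
Log2 change against control with ABA, DMTU and both (mean ± SE of the fit), with a black bar at the sum of the single changes. All 3 changes of a gene share the 3 control arrays. LEA18, HIS1-3 and APL4 lie far left of their bar, FDH, UPB1 and PMEPCRF right of it, CP1 right of it with all 3 levels at background, and PIFI, COR15A and psaA near it.

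Some genes were called with each agent alone, in opposite directions, and not with both. ARL (ARGOS-like, a gene that promotes organ growth) averaged 7.55 ± 0.50 in control cells, 5.55 ± 0.03 with ABA, 8.70 ± 0.71 with DMTU and 7.57 ± 0.29 with both. Its single changes were -2.001 ± 0.33 and 1.15 ± 0.33, both called, and the combined change was 0.02 ± 0.33 (adjusted p = 0.965), 2.02 ± 0.33 above ABA. For IGPD, of histidine synthesis, the changes were -0.96 ± 0.31 with ABA, 1.39 ± 0.31 with DMTU and 0.00 ± 0.31 with both. For SMZ, a floral repressor, they were 0.92 ± 0.20, -1.22 ± 0.20 and -0.10 ± 0.20 in the same order. IGPD and SMZ were picked after their values were seen, and a combined change that misses the threshold does not show that the level was the same as in control.

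Against DMTU alone, ABA+DMTU called 8956 probe sets (39.4%), 4274 (18.8%) higher and 4682 (20.6%) lower, a split that centring moved to 6753 and 3765. LTI30 was 11.07 ± 1.17 with ABA, 7.32 ± 0.31 with DMTU and 12.91 ± 0.71 with both, against 4.61 ± 0.24 in control, and its departure from the sum, -0.87 ± 0.71, did not pass (adjusted p = 0.644). PIFI was 6.24 ± 0.55, 7.20 ± 0.08 and 8.32 ± 0.20 in that order, with a departure of 0.22 ± 0.46 (adjusted p = 0.886). AT5G48570 (ROF2) was 4.82 ± 0.52, 6.20 ± 0.33 and 7.09 ± 0.66, against 4.90 ± 0.48 in control. psaA was 5.63 ± 0.22 with DMTU alone and 6.50 ± 0.80 with both, a difference of 0.87 ± 0.35 (adjusted p = 0.0722).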

How the data were processed

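RNA of T87 cells was labelled with biotin by a 3' kit and measured on 12 arrays, 3 for each of 4 groups taken from the sample titles. The authors deposited 1 table of log2 values per probe set, made with RMA per the submitters' processing notes, which also name limma. Whether all 12 arrays were normalized together is not given in the sources used here, and array medians ran from 5.78 to 6.05. The deposited values were used as they stand.

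The 22746 probe sets that are not manufacturer's controls entered 1 limma model of the 12 arrays, in which each group has its own mean (limma 3.58.1, R 4.3.3, 8 residual degrees of freedom). The contrasts were ABA+DMTU against control, ABA and DMTU, and the departure from the sum of the single changes. P-values were two-sided and adjusted by Benjamini-Hochberg over all 22746, with calls under 0.05. The fit was tested on simulated data. Genes were named through the platform annotation and a RefSeq gene table of the TAIR10.1 assembly, and only probe sets with 1 gene were named. Where a gene had several probe sets, a list counted the one with the highest mean level.

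Genes were named by rule: the 14 largest rises and falls of genes with a symbol and the 6 largest of loci alone, at least 2-fold and without overlap of the arrays, the 6 largest in each direction against ABA and in the departure, up to 4 members of a list, and a few genes known from earlier results. Others, among them IGPD, SMZ, the list members given as values and those named for completeness, were chosen after their values were seen. The members and lists were chosen with earlier results of these data known. Symbols that stood for unrelated genes (CKS, POR, FRO1 and FER) were kept out of the lists described here, after values were seen. Alternatives changed scaling, filters, weights, the variance prior, a replicate block and the arrays included. Arrays give no counts, so their number, 3 a group, limits the precision. Promoter and transcript sequences were not used here. No value column was left out.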

Additional observations from a re-analysis of the deposited data

Results flagged for a closer look

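The ABA effect differed between cells with and without DMTU, by the limma test of the difference itself (adjusted p under 0.05 over 22746 probe sets), for 20 of the genes described. Each value is the ABA effect with DMTU minus that without, on the log2 scale, and equals the departure from the sum of the single changes. It was below 0 for AT3G02480 (-4.09), LEA18 (-3.25), HIS1-3 (-3.09), AtLEA4-1 (-2.45), SAG29 (-2.31), APL4 (-2.18), scpl28 (-2.07), PUB19 (-1.70), AT1G03820 (-1.49), LEA (-1.48), AT5G24080 (-1.36), AT5G62800 (-1.35) and UBP21 (-1.07). It was above 0 for CP1 (3.64), PMEPCRF (2.25), UPB1 (1.84), SWEET17 (1.81), FDH (1.77), SD1-29 (1.48) and TBL25 (1.25). In CP1 the level was at background with either agent and with both, so its value is set by that floor and does not measure how the agents combined. LEA18, HIS1-3 and UPB1 lay near background without ABA, where a fall with DMTU alone cannot be measured. The calls of AtLEA4-1, SWEET17, UBP21, AT3G02480, AT5G24080, AT5G62800 and AT1G03820 were lost when 1 or more single arrays were left out. Of all probe sets, 2.8% were called in this test, and the genes above were in part named because they passed it.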

How the results depend on the processing

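The count between ABA+DMTU and control, 8419, ran from 6881 to 8875 with single arrays left out, with 3177 to 4276 higher and 3704 to 4599 lower, and was 3479 when a 2-fold change was required too. The total was 10095 with each array centred, 11671 with array quality weights and 9753 without replicate 1 of both control and ABA. The higher count was 6620 with each array centred and 6010 with array quality weights. Against ABA, 3234 became 1044 at 2-fold and 7542 with weights, and ran from 2160 to 4356 with single arrays left out. Against DMTU, 8956 became 4221 at 2-fold, and ran from 7754 to 9704. The interaction, 638, became 3097 with weights and 1243 without replicate 1 of control and ABA together, and ran from 291 to 795. With the replicate number as a block the 4 counts were 8420, 3320, 8916 and 583. Same-numbered control and ABA+DMTU arrays correlated at -0.049, -0.099 and 0.045 in their deviations from the group means. With so few arrays in a group, such correlations cannot show whether same-numbered arrays shared a culture or a run. Of 245 probe sets named by rule, 240 were called against control, 185 of these in every setting and 55 not in at least 1. No named change reversed among the called ones. The cause of these shifts was not tested. Brightness near the mean lower quartile, 3.92, limits the size of falls such as that of CP1. A promoter motif search was planned and not run. The interaction needs all 4 groups and so has no value in a fit of 6 arrays.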
